A study of Mus musculus with 6 samples.

Results

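The genes described here carry peptides from the cell interior to the surface: the MHC class I heavy chains H2-K1 and H2-D1, their light chain B2m, the peptide transporter subunits Tap1 and Tap2, the loading chaperone Tapbp, the immunoproteasome catalytic subunits Psmb8, Psmb9 and Psmb10, and the regulator Nlrc5. They are 10 of the 17110 genes in the authors' deposited comparison table, found there by gene name, and each name matched 1 row. The members were selected by function and on fold changes and adjusted p-values of this same table that were already known, so their values are given as a description, with no test added, and support no claim that they differ from other genes. The study sorted mouse embryonic stem cells of the line labelled TG2A, which carry a fluorescent protein under the MERVL retroviral promoter, into DsRed2+ and DsRed2- groups of 3 samples each. Both groups were grown in serum with leukemia inhibitory factor, and RNA with poly(A) tails was sequenced. MERVL is an endogenous retrovirus of the early mouse embryo, and the reporter marks the rare cultured cells that express it. The labels give no strain, and all samples share 1 line, so the H2 haplotype of these cells is not stated.

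The deposited table gives 1 log2 fold change with its standard error (SE) per gene and no value per sample. It names neither the groups compared nor the numerator. The comparison was taken to be the sorted groups because the labels list no others, and the sign is kept as deposited. A negative value therefore means a lower level in whichever group the table treats as the numerator. A gene is called here when the authors' adjusted p-value is under 0.05. The labels describe the replicates as biological and taken on different dates, and depth and spread per sample were not analysed here. As a check of the labelled cell type, 13 of 13 pluripotency markers had a row, among them Pou5f1, the core pluripotency factor, with a mean normalized count of 32810 over all libraries.

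MHC class I molecules are built from a heavy chain and B2m in the endoplasmic reticulum, and are stable at the surface only with a bound peptide. The proteasome makes most of these peptides, the Tap1 and Tap2 transporter pumps them across the membrane, and Tapbp (tapasin) holds the empty molecule at the transporter. Interferon signalling exchanges the constitutive catalytic subunits Psmb5, Psmb6 and Psmb7 for Psmb8, Psmb9 and Psmb10, and Nlrc5 switches on class I promoters together with a complex bound to a conserved upstream module. Embryonic stem cells are known for very low class I levels.

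The sequences through which these genes are read out come first, because several members share their upstream elements. Of the 10 members, 8 had a promoter window in the RefSeq-based table (build GRCm38.p6, while the submitters' processing notes name GRCm39), and Tap2 and Nlrc5 had none there. The windows below are the 250 bases before the annotated start, 5′ to 3′ on the gene's strand, with capitals at matches to any motif searched. The motifs, on both strands, were GAAANNGAA and, added after the sequences were seen, GAANNGAAA (both orders of the core of the interferon-stimulated response element, ISRE), TTCNNNGAA (the interferon gamma-activated sequence, GAS), GGGNNTTCC (a kappaB-like element), TGACG (core of the cyclic AMP response element, CRE) and ATTGG (an inverted CCAAT box). H2-K1 has 2 annotated starts, and the window of the more upstream start is shown. A match is a description of letters and does not show that a factor binds.
H2-K1 (chr17:34000348-34000597, minus strand): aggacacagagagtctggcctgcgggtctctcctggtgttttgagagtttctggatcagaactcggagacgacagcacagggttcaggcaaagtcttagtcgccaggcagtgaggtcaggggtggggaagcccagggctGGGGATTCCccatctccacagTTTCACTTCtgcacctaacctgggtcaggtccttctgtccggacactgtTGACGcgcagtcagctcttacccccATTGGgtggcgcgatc
H2-D1 (chr17:35262844-35263093, plus strand): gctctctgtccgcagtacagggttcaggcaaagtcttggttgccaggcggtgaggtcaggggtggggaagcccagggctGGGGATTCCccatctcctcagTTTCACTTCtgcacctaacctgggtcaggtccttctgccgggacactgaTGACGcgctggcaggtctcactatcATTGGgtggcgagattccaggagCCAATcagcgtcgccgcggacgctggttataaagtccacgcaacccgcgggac
B2m (chr2:122147437-122147686, plus strand): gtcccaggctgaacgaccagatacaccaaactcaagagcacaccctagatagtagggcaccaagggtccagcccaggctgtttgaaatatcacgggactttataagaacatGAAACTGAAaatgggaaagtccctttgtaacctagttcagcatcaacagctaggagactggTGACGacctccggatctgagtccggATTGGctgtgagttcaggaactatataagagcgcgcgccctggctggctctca
Tap1 (chr17:34187306-34187555, plus strand, shared with Psmb9): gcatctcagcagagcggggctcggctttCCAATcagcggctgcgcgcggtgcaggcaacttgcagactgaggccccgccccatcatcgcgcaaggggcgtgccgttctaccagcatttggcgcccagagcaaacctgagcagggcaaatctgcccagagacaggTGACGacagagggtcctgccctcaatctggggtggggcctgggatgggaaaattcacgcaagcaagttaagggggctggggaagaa
Psmb8 (chr17:34197945-34198194, plus strand): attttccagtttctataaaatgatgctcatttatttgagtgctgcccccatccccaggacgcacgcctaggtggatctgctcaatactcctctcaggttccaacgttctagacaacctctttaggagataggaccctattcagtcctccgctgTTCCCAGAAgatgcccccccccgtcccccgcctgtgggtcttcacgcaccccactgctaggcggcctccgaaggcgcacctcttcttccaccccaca

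The H2-K1 and H2-D1 windows are close copies where they align, identical at 170 of 190 aligned bases (89.5%), with gaps left out. Both hold a kappaB-like match, an ISRE core 21 bases on, a CRE core 70 bases after the start of the kappaB-like match, and an inverted CCAAT box 25 bases after the start of the CRE core. B2m repeats the last pair at the same spacing of 25 bases, with an ISRE core upstream of it. This pair at this spacing, searched for after it was seen in these windows, occurred in 30 of 32851 windows (0.0913%), belonging to 26 genes. Of these genes 19 had a row in the authors' deposited table, of which 5 were called negative (3 of them the members) and 1 positive, around a median log2 fold change of -0.067. Of all genes, 15.9% were called negative and 14.6% positive. Beside the 3 members, the called genes were Nrarp at -1.40, Ubn1 at -0.25 and, in the positive direction, Trim26 at 0.48, all named after their values were seen. Among the genes with a row, the 1 other class I gene was H2-M3, a non-classical heavy chain that was not called, at -1.11 with an SE of 0.46 and an adjusted p-value of 0.0504 from the authors' DESeq2 fit.

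Tap1 and Psmb9 lie head to head with 225 bases between their annotated starts, so all of those bases belong to both upstream windows. The shared stretch holds 1 CRE core and 1 inverted CCAAT box. Psmb8 held a GAS match 97 to 89 bases before its start, Tapbp held 2 inverted CCAAT boxes, and Psmb10 held none of the motifs. Among all 32851 windows, the CRE core was found in 17.8%, the inverted CCAAT box in 33.8%, GAANNGAAA in 6.31%, GAAANNGAA in 7.13%, TTCNNNGAA in 7.02% and GGGNNTTCC in 4.98%. Of the 8 members with a window, 5 held the CRE core, 6 the inverted CCAAT box, 2 the kappaB-like element, 2 GAANNGAAA, 1 GAAANNGAA and 1 the GAS element.

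**Figure D1:**
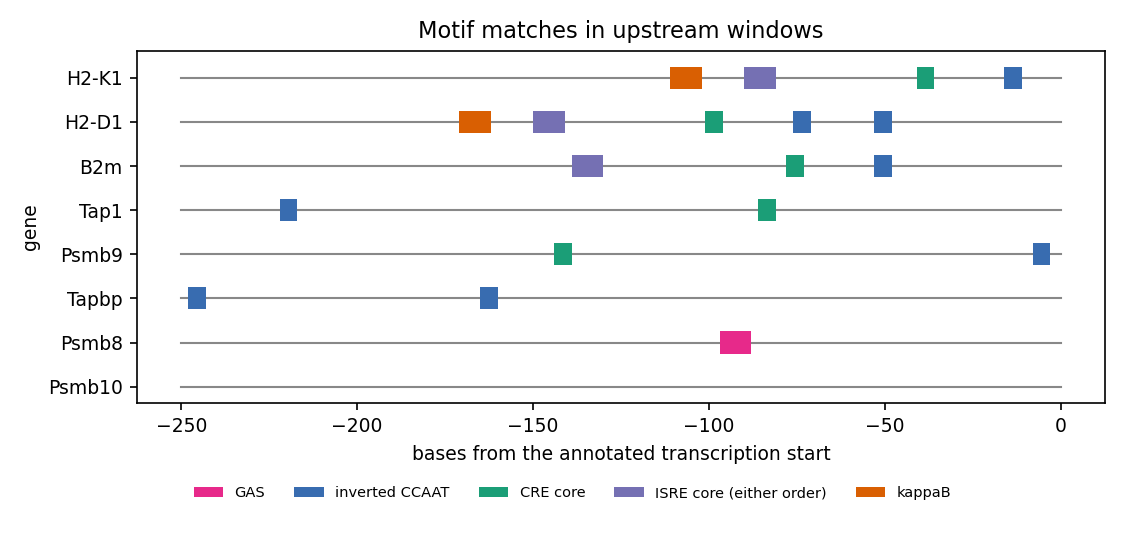
Matches of the searched motifs in the 250 bases before the annotated start of 8 members (x axis, bases from the start; 1 line per gene, the more upstream start for H2-K1). H2-K1 and H2-D1 share the order and spacing of a kappaB-like, an ISRE, a CRE and an inverted CCAAT match. H2-D1 holds a further inverted CCAAT match nearer its start, as does the window of the other H2-K1 start, which is not drawn. B2m shares their CRE core and inverted CCAAT box 25 bases apart.

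All 10 members were negative in the authors' deposited table and all 10 were called, against 15.9% of all 17110 genes called negative. The authors' own call, which also asks for a log2 fold change under -0.5, took all 10 as down, against 12.1% of all genes. Since the members were picked with this comparison in view, nothing is read from these counts. The median log2 fold change was -1.85 over the 10 members, a level 3.61-fold lower, against 0.0097 over all genes. The members spanned -6.73 to -0.52, and 9 of them were called and below -1, as were 7.69% of all genes.

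**Figure D2:**
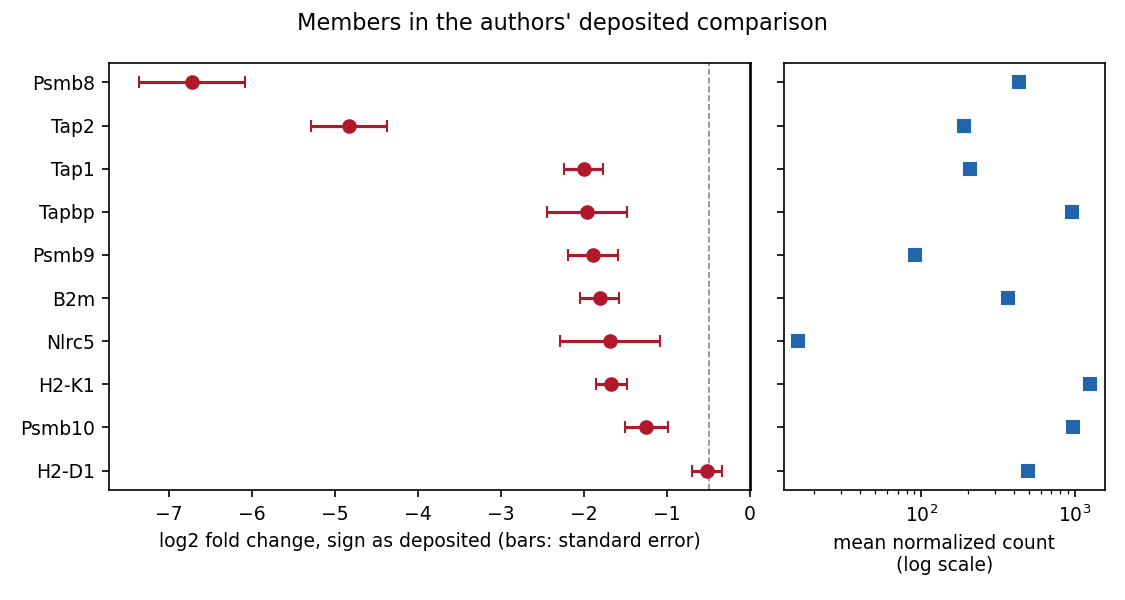
Log2 fold change of the 10 members with the authors' standard error as bars (left; dashed line at -0.5) and mean normalized count over all libraries (right, log scale), both from the authors' deposited table. Psmb8 and Tap2 stand apart at the negative end, 6 members lie between -2.01 and -1.67, and H2-D1 lies closest to 0.

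The catalytic subunits of the immunoproteasome spanned nearly the whole range of the members. In the authors' deposited table Psmb8 (ENSMUSG00000024338), the chymotrypsin-like subunit of the immunoproteasome, stood at -6.73 with an SE of 0.64 (DESeq2 adjusted p-value 4.39e-24), the 17th most negative value of the whole table. Its mean normalized count was 430.8. With 3 libraries in each group, that mean and fold change imply group means of about 8.07 and 854 normalized counts, a 106-fold difference, so nearly all Psmb8 reads lay in 1 group. The implied means take the table's mean as the average of the 2 group means and carry the error of the fold change. Psmb9 (ENSMUSG00000096727), which carries the caspase-like position, stood at -1.89 with an SE of 0.30 (DESeq2 adjusted p-value 7.49e-09) and a mean count of 90.2. Psmb10 (ENSMUSG00000031897), which carries the trypsin-like position, stood at -1.25 with an SE of 0.26 (DESeq2 adjusted p-value 1.15e-05) and a mean count of 974.6. The 3 subunits that assemble into 1 particle thus had fold decreases of 106, 3.71 and 2.38, and Psmb8 was apart from the other 2 by several times their standard errors.

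None of the constitutive counterparts was called. In the authors' deposited table Psmb5, Psmb6 and Psmb7 stood at 0.15, 0.13 and -0.06, each with an SE of 0.10, and 0 of the 3 were called. The constitutive subunits were also the more abundant ones per length: Psmb5 had 1721 normalized counts per kilobase of its longest coding transcript against 264.6 for Psmb8, Psmb6 had 9228 against 66.7 for Psmb9, and Psmb7 had 7641 against 743.4 for Psmb10. These levels are means over both groups. For Psmb5, 22.2% of the 100-base windows of its transcripts also occur in other annotated genes, so its count is less certain than the others.

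The other proteasome genes are given by role, beside 15.9% of all genes called negative and 14.6% positive. Of 12 other subunits of the 20S core, 0 were called negative and 1 was called positive: Psma8, the testis form of a core subunit, at 1.38 with an SE of 0.15 in the authors' deposited table. The most abundant of these, Psma6, stood at 0.19. Of 21 subunits of the 19S regulatory cap, 0 were called by the authors' DESeq2 fit, and their log2 fold changes lay between -0.20 and 0.18, with Psmd2, the most abundant, at 0.07 with an SE of 0.12. Among 10 activator and assembly genes, 3 were called negative, 0 positive and 7 not called, around a median of 0.030. The negative calls were Psme2 at -1.53 with an SE of 0.23 and Psme1 at -0.98 with an SE of 0.18, the paired subunits of the interferon-inducible PA28 activator, and Psme4, the nuclear PA200 activator, at -0.20 with an SE of 0.07.

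**Figure D3:**
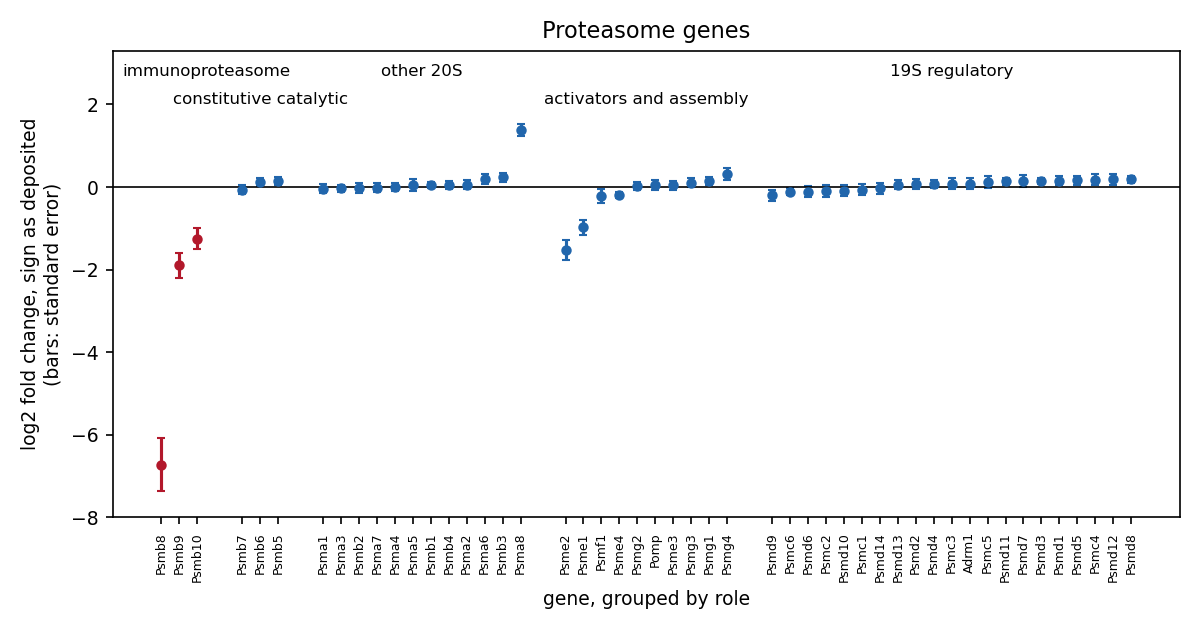
Log2 fold change of proteasome genes grouped by role, with the authors' standard error as bars, from the authors' deposited table. The 3 immunoproteasome subunits (left) and the PA28 genes Psme1 and Psme2 lie below the core and cap subunits, which cluster around 0 except Psma8 at 1.38.

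The transporter subunits differed from each other. Tap2 (ENSMUSG00000024339) stood at -4.83 with an SE of 0.46 in the authors' deposited table (DESeq2 adjusted p-value 1.09e-23), and Tap1 (ENSMUSG00000037321) at -2.01 with an SE of 0.24 (DESeq2 adjusted p-value 1.63e-15). Their mean counts were alike, 190.8 and 206.2, so the difference between a 28.5-fold and a 4.02-fold decrease did not come with a difference in mean level. The gap of 2.82 between them on the log2 scale was larger than their combined SE of 0.52, which takes the genes as independent. Implied group means were about 12.9 and 369 for Tap2, and 82.2 and 330.2 for Tap1. Tapbp (ENSMUSG00000024308) stood at -1.96 with an SE of 0.48 and an adjusted p-value of 0.000279 from the authors' DESeq2 fit. Its mean count of 967.0 was close to that of Psmb10, and its SE was the wider of the pair.

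Around the transporter, the loading and folding list of 16 genes had 4 negative and 1 positive calls, and its median from the authors' deposited table was -0.057. Over all genes, 15.9% were called negative and 14.6% positive. Erap1, the peptidase that trims peptides inside the endoplasmic reticulum, stood at -3.30 with an SE of 0.35, and Tapbpl, the tapasin-related peptide editor, at -1.59 with an SE of 0.47. Mpdu1, a glycosylation factor, stood at 0.50. Canx (calnexin), a general chaperone of the same compartment and the most abundant gene of the list, stood at -0.05 with an SE of 0.08 and was not called. Among 10 peptidases of the cytosol and endosomes, 4 were called positive and 1 negative, led by Lap3 at 0.64, Npepps at 0.47 and Lnpep at 0.39.

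The class I molecules themselves were negative to unequal degrees. H2-K1 (ENSMUSG00000061232) stood at -1.67 with an SE of 0.19 in the authors' deposited table (DESeq2 adjusted p-value 5.14e-17), and had the highest mean count of the members, 1262. Its light chain B2m (ENSMUSG00000060802) stood at -1.81 with an SE of 0.24 (DESeq2 adjusted p-value 7.38e-13) and a mean count of 368.2. H2-D1 (ENSMUSG00000073411) stood at -0.52 with an SE of 0.18 (DESeq2 adjusted p-value 0.0163), a 1.43-fold decrease. Its upstream window shares the kappaB-like, ISRE, CRE and inverted CCAAT matches of the shown H2-K1 window. It also holds a further inverted CCAAT match, on the minus strand, that the shown H2-K1 window lacks. The window of the other H2-K1 start, not shown, does hold such a match, 6 to 2 bases before that start. Whether these letters bear on the fold changes was not tested. H2-K1 and H2-D1 share no 100-base window in the annotated transcripts of the reference strain, and 4.09% of the windows of H2-D1 occur in other genes, mostly H2-Q1. Class I genes are highly variable between strains, and how well reads of this line matched the reference alleles was not tested.

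The other class I heavy chains had rows for 15 of 27 symbols, of which 6 were called negative and 3 positive. The authors' deposited table gave them a median of -1.35. Over all genes, 15.9% were called negative and 14.6% positive. H2-Q4 stood at -2.24 with an SE of 0.27 and H2-T22 at -2.57 with an SE of 0.28. Genes within the Q and T groups share sequence, and 12.4% of the 100-base windows of H2-T22 and 2.66% of those of H2-Q4 occur in other genes. In the opposite direction, H2-M5 stood at 1.76 with an SE of 0.22 and was the most abundant of this list by mean count, 1147. The other 2 positive calls, named after their values were seen, were Fcgrt, the neonatal Fc receptor chain, at 2.63 and Cd1d1, which presents lipids, at 0.96. The class II pathway had rows for 6 of 13 genes, with H2-Ab1, a class II chain, negative at -2.84 with an SE of 0.56 and H2-DMb1, a class II peptide exchanger, positive at 1.32 with an SE of 0.50. Ifi30, a thiol reductase of the same pathway, stood at -0.23 with an SE of 0.23.

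Nlrc5 (ENSMUSG00000074151), the class I transactivator, stood at -1.69 with an SE of 0.60 in the authors' deposited table (DESeq2 adjusted p-value 0.0188). It had by far the lowest mean count of the members, 15.8, which over equal groups implies about 7.47 and 24.1 normalized counts. Per kilobase its level was 2.08, against 779.4 for H2-K1. Of 29 genes of the promoter-bound complex and of interferon and NF-kappaB signalling, 7 were called negative and 3 positive, with a median of -0.12. The shares over all genes were 15.9% negative and 14.6% positive. Rfxap, a subunit of the complex that Nlrc5 joins, stood at -1.19 with an SE of 0.14, while its partner Rfx5 stood at 0.22 with an SE of 0.16 and was not called. Irf1, an interferon-induced factor that binds the ISRE, stood at -1.69 with an SE of 0.25, and Ifngr1, a chain of the interferon gamma receptor, at -1.29 with an SE of 0.20. Atf1, a CRE-binding factor and the most abundant of these regulators, stood at 0.08 with an SE of 0.09 and was not called. The 3 positive calls, named after their values were seen, were Kat2b at 0.73, Tyk2 at 0.56 and Nfya at 0.25.

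Chromatin factors that are known to hold class I genes silent in several cell types had rows for 14 of 14 symbols, of which 6 were called positive and 1 negative, and the authors' deposited table gave them a median of 0.25. Mtf2, a partner of Polycomb repressive complex 2, stood at 0.73 with an SE of 0.09, Dnmt1, the maintenance DNA methyltransferase, at 0.39 with an SE of 0.07, and Trim28, a corepressor, at 0.65 with an SE of 0.13. The negative call, named after its value was seen, was Dnmt3b at -0.40 with an SE of 0.16. Ezh2 at 0.08 and Suz12 at 0.10 were not called. The authors' own call, with its fold limit, took 3 of the list as up and 0 as down. Among 14 genes of class I turnover, 3 were called negative, including Marchf8, a ubiquitin ligase, at -0.58 and Edem1, a degradation factor, at -0.35, and 1 was called positive, Wwp2 at 0.40. Across the 11 pathway lists outside the members, 150 genes had a row, 26 were called negative and 20 positive, and their median was -0.0029. Of all 17110 genes, 15.9% were called negative and 14.6% positive, so calls in both directions are common in this comparison. The counts per list are to be read beside these shares, and nothing is read from them.

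**Figure D4:**
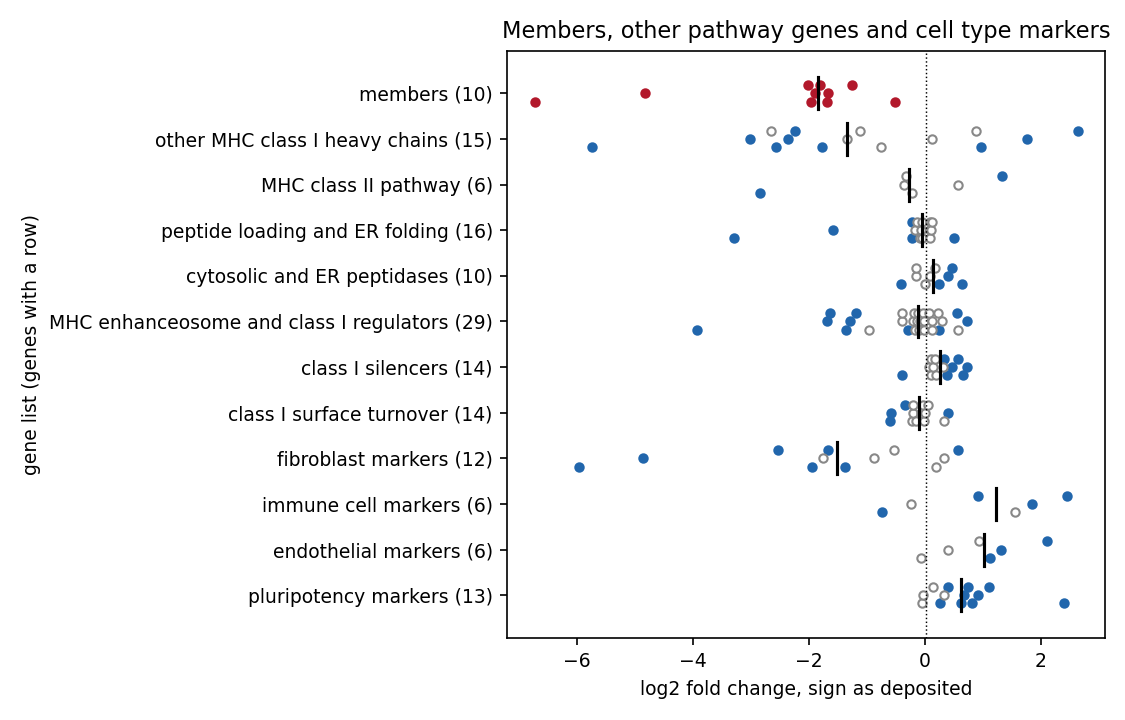
Log2 fold change of each gene (x axis) in the members, 7 further pathway lists and 4 marker lists (y axis, genes with a row in parentheses); filled points are called, open points are not, black bars are list medians and the dotted line is the median of all genes, all from the authors' deposited table. The members and the other class I heavy chains have medians of -1.85 and -1.35, and the fibroblast markers of -1.52.

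In order of fold change, 4 of the 9 gaps between neighbouring members were larger than the combined SE of the pair. The gap was 1.89 from Psmb8 to Tap2 (combined SE 0.79) and 2.82 from Tap2 to Tap1 (combined SE 0.52). It was 0.42 from H2-K1 to Psmb10 and 0.73 from Psmb10 to H2-D1 (combined SE 0.32 for each). A gap over 1 combined SE is a loose limit, and the pairs were formed after sorting by value. The order of H2-K1 and Psmb10 is therefore not resolved. Between Tap1 and H2-K1 lie Tapbp, Psmb9, B2m and Nlrc5, and none of the 5 gaps there exceeded the combined SE, so the order of these 6 genes is not resolved either.

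By position, 7 of the 10 members lie on chromosome 17 in the MHC, 2 on chromosome 8 (Psmb10 and Nlrc5) and B2m on chromosome 2. From Tapbp to H2-D1, in the gene order of GENCODE M21, 82 genes had a row. Psmb9, Tap1, Psmb8 and Tap2 follow one another there with no other row between them, and the most negative values of the stretch, Psmb8 and Tap2, are next to each other. H2-Ab1, the row after Tap2, was the fifth gene in this run of negative calls. Of the 75 genes of the stretch that are no members, 4 were called negative, 7 positive and 64 not called, and their median from the authors' deposited table was 0.072. Over the whole table, 15.9% of genes were called negative and 14.6% positive, so most genes anywhere were not called. The most negative of these were Ltb, the cytokine lymphotoxin beta, at -3.93 with an SE of 0.36, H2-Ab1 at -2.84, and Gm17705 at -1.95 with an SE of 0.89 and no call. The most positive were Btnl7-ps at 2.59 with an SE of 0.50, Lst1 at 2.09 with an SE of 0.83, and Ly6g5c at 1.84 with an SE of 1.18 and no call.

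The 9 genes between Tapbp and H2-K1 held 0 calls by the authors' DESeq2 fit, and the 9 between H2-K1 and Psmb9 held 1, H2-DMb1. Outside the MHC, B2m at -1.81 lies between Patl2 at 1.16 and Terb2 at 2.48, both called positive, and Psmb10 at -1.25 lies between Ctrl at -0.053 and Lcat at 0.20, neither of them called. Nlrc5 has Cpne2, called at -1.25 with an SE of 0.34, on 1 side and Ap3s1-ps2, at -0.38 and not called, on the other. These neighbours were taken by position, not by value.

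**Figure D5:**
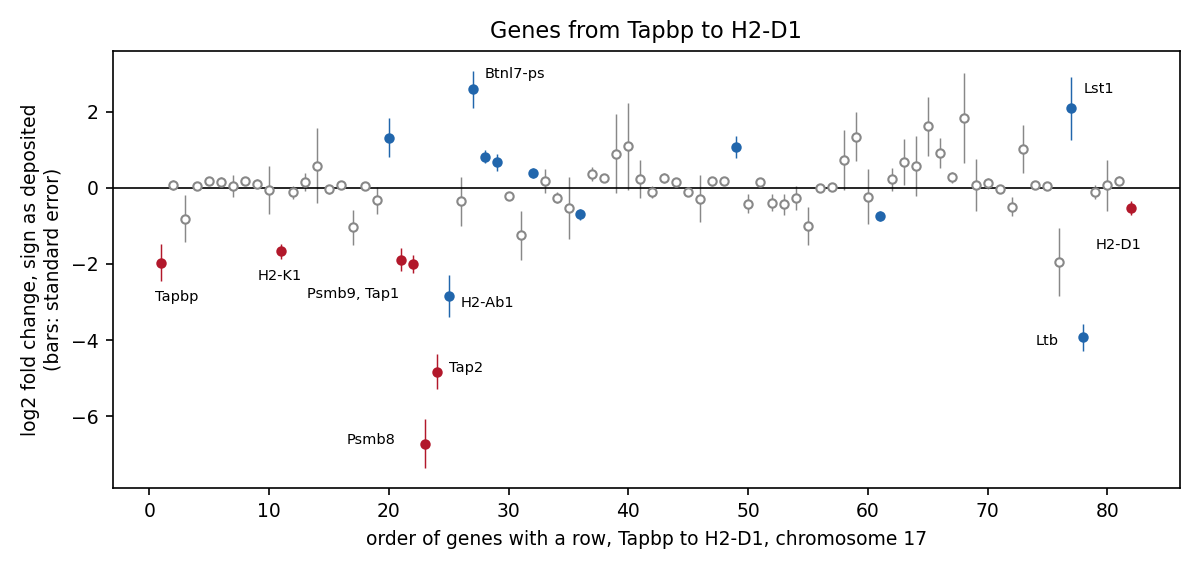
Log2 fold change with the authors' standard error for the 82 genes with a row from Tapbp to H2-D1 on chromosome 17, in gene order; red points are members, blue points are other called genes and open points are not called. The 4 consecutive genes Psmb9, Tap1, Psmb8 and Tap2 are negative together, and 64 of the 75 other genes were not called. Over the whole table, 15.9% of genes were called negative and 14.6% positive.

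Markers of other cell types differed in the same comparison, and since the samples are bulk RNA, fewer cells of a type and less RNA per cell cannot be told apart. Of 20 fibroblast markers 12 had a row, of which 6 were called negative and 1 positive. The authors' deposited table gave them a median of -1.52. Of all genes, 15.9% were called negative and 14.6% positive. Tagln, a contractile protein, stood at -5.96 with an SE of 0.50, Twist1, a mesenchymal factor, at -2.54 with an SE of 0.35, Col5a1 at -1.38 with an SE of 0.24, and Fn1, the most abundant, at 0.58 with an SE of 0.18. The remaining negative calls were named after their values were seen. They were the collagen genes Col1a2 at -4.85 (SE 1.22) and Col1a1 at -1.67 (SE 0.58), and Acta2 at -1.95 (SE 0.60). Mean counts of these 3 genes were well below the median of 394.2 over all genes. The other 5 markers with a row were not called. Vim at 0.20 (SE 0.23) and Thy1 at 0.34 (SE 0.43) were positive. Col6a1 at -1.76 (SE 1.02), Pdgfra at -0.88 (SE 0.79) and Pdgfrb at -0.54 (SE 0.37) were negative. The collagen gene Col3a1 and the matrix genes Dcn, Lum and Postn were not among the rows used here. Levels of the markers in each group were not analysed here. Of 20 immune markers 6 had a row, with 3 called positive and 1 negative, and Ptprc, the pan-leukocyte marker, was not among those used here. Cd3e stood at 2.45, Itgam at 1.84 and Cd68 at 0.91, with mean counts of 40.5, 23.1 and 166.0. The negative call, named after its value was seen, was Coro1a at -0.74 with a mean count of 165.4. Of 8 endothelial markers 6 had a row, of which 3 were called positive and 0 negative: Vwf at 2.09, Pecam1 at 1.12, and Tek at a 2.47-fold higher level. Of the 13 pluripotency markers 9 were called positive and 0 negative, with Tbx3 at 2.39, Zfp42 at 1.10, Esrrb at 0.91 and Pou5f1 at 0.26. Only 2 of 26 markers of the state that the reporter reads out had a row used here, Calcoco2 at 3.10 with an SE of 0.14 and Arg2 at 0.45 with an SE of 1.01. The part of any of these marker differences in the values of the members was not tested.

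The values depend on where the fold changes are centred. The median of the 78 genes for ribosomal proteins was 0.094, and with that subtracted the members' median was -1.94 and all 10 were again called negative. Subtracting a positive value could only make the members more negative, so their direction was fixed in advance. That centring moved the whole table from 2719 to 3520 negative calls, or from 15.9% to 20.6% of all genes, and the positive share of calls from 47.8% to 34.5%. It also turned the medians of the larger proteasome lists negative. They were -0.049 for the other 20S subunits, -0.064 for the activator and assembly genes and -0.013 for the 19S cap. The other class I heavy chains then had 9 negative and 3 positive calls, and the regulators 10 and 2.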

How the data were processed

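RNA of 6 samples in 2 sorted groups was sequenced. The submitters' processing notes name FastQC 0.12.1, Trimmomatic 0.39, STAR 2.7.11b, RSEM 1.3.3, DESeq2 1.45.3 and GRCm39, without roles. Values came from the authors' comparison table. Per the file headers, the mean normalized count is a signal pooled by the authors over libraries, the fold change and its standard error are deposited on the log2 scale, the deposited statistic is a score, and p-values and adjusted p-values are as deposited by the authors. The model, filters and annotation release are not given in the sources used here. A deposited count table has 6 columns named by run and barcode, which match no label, so 6 columns were not used, no edgeR or other count test was run as the design had planned for matched columns, and depth is unknown.

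The members and gene lists were chosen with earlier results of these data known. Named genes were all members and, per list, the 3 called genes with the smallest adjusted p-value plus the most abundant, or all genes in lists of up to 5. In the MHC stretch, the 3 most positive and 3 most negative others were named, and Psmb5, Psmb6, Psmb7, Irf1 and Rfx5 always; 1 further gene of this rule is not reported here. Python 3.11.15 with pandas 2.3.3 gave medians, calls, Benjamini-Hochberg values after centring and implied group means, 2 × mean × r / (1 + r) and 2 × mean / (1 + r), with r the fold change. Routines were tested on simulated data. Gene order, transcript lengths and shared 100-base windows came from GENCODE M21 (GRCm38) for 16795 genes, by Ensembl ID. Levels per length use the longest coding transcript. Protein sequences were not used here, so the planned protein identities were not computed.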

Additional observations from a re-analysis of the deposited data

How the results depend on the processing

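No paired analysis was possible because columns of counts could not be matched to samples and the comparison table gives each gene a single value; fits that leave out a replicate, other normalizations and DESeq2 on counts were not run either. All 10 members stayed negative under both centrings, and 10 were called under centring, readjustment and a fold limit of 0.5. Both centres were positive, at 0.0097 and 0.094, so the direction was fixed in advance. The 0.5 limit is that of the authors' own call, which all 10 already met. Readjustment left the whole table at 2719 negative and 2492 positive calls, as deposited. None of these settings could therefore weigh on the members. The count of member calls was 9 at a fold limit of 1 (without H2-D1). It was also 9 with a mean count of at least 50 (Nlrc5 left out). It was 8 at an adjusted p-value under 0.01 (without H2-D1 and Nlrc5), and 7 under Bonferroni (also without Tapbp). Nlrc5 had the lowest mean count of the members, 15.8. An absolute fold limit of 1 took the other pathway genes from 26 to 16 negative and from 20 to 4 positive calls, the 75 genes of the MHC stretch that are no members from 11 to 6 calls in both directions together, and all genes from 2719 to 1315 negative and from 2492 to 957 positive. A limit of 0.5 left 11 positive pathway calls and 1609 positive calls over all genes. Bonferroni left 12 negative and 11 positive pathway calls, 4 calls among those 75 genes, and 1040 negative and 864 positive over all genes. A minimum mean count of 50 left 7 calls among the same 75 genes. These changes follow from the stricter limits or fewer genes. Over the alternatives, 40 values of other named genes lost their call and 339 stayed on their side of the threshold.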
